A study of Mus musculus with 7 samples.

Results

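The immediate early genes Fos, Fosb, Egr1, Jun, Junb, Ier2, Ier3, Dusp1, Atf3 and Myc were followed by ChrRNA-seq, the sequencing of RNA purified with chromatin, which holds mostly transcripts still being made. These 10 genes were chosen by symbol from the 22556 genes of the expression table, and 8 of them had a mean of at least 1 RPM (a gene's read pairs scaled to the library's total on genes) over the 7 libraries. Fosb and Ier3 lay below that mean and are given as values only. All libraries came from 1 clone, the C7H8 XX mES cells of a Cast x 129S background, in which a TetOn promoter replaces the Xist promoter on the Cast X chromosome. DMSO was given in 3 libraries, and STM2457, a small-molecule inhibitor of the catalytic activity of METTL3, at 10 µM in 2 libraries, at 20 µM in 1 and at 30 µM in 1. Each treatment was given for 6 h and then continued for 24 h together with doxycycline (Dox, 1.0 µg/mL), which induces Xist, so that the DMSO libraries had induced Xist too. The cells were grown on inactivated fibroblast feeders in serum and LIF, and were trypsinised and washed before lysis. No member was called between 10 µM and DMSO over all libraries or along the dose. Once libraries were paired by replicate number Atf3 alone was called, by limma and by edgeR, in fits that called 4.13% of the 13599 genes tested higher and 3.38% lower in limma, and 3.11% and 3.04% in edgeR. The same 4 libraries without the pairing gave Atf3 a limma adjusted p of 0.891. In DMSO replicate 3, 7 of the 8 were at least 1.5-fold lower than in the other DMSO libraries, as were 29.5% of genes. With factors of the trimmed mean of M-values (TMM) 6 of the 8 were lower, as were 3061 of the 13599 genes.

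Immediate early genes are transcribed within minutes of a growth factor, serum or stress signal from factors that are already in the cell, chiefly SRF with its ELK partners and CREB, which the ERK, p38 and JNK kinases activate. Their mature transcripts are short-lived, often through AU-rich elements. Nascent RNA, in turn, follows transcription at the time of lysis more closely than this decay. RNA purified with chromatin is not nascent RNA alone, and the study linked higher Xist in ChrRNA-seq after METTL3 loss to slower decay. Transcription and decay on chromatin were not told apart here. METTL3 is the catalytic subunit of the complex that writes m6A on nascent RNA, and m6A marks many transcripts for decay.

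The promoters of Fos and Atf3 are shown because Fos differed most between libraries and Atf3 was the member called with the pairing. That of Dusp1 is shown because it held the only full CRE among the 7 members with a RefSeq promoter. Each sequence is the 250 bases before the RefSeq start in GRCm38.p6 (the assembly of mm10), 5′ to 3′ on the strand of the gene, with the matches to the searched motifs in capitals. Fos lies on the plus strand at chr12:85473640-85473889, Dusp1 on the minus strand at chr17:26508473-26508722 and Atf3 on the minus strand at chr1:191183334-191183583.
Fos: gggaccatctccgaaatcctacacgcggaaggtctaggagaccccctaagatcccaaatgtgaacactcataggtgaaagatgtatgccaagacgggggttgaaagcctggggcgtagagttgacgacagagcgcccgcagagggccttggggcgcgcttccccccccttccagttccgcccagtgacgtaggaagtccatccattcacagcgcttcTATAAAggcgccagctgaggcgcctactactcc
Dusp1: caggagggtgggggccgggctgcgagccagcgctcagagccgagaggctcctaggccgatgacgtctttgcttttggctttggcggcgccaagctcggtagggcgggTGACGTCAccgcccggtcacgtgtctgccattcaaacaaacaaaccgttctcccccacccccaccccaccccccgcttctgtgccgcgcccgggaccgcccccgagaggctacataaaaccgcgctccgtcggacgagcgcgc
Atf3: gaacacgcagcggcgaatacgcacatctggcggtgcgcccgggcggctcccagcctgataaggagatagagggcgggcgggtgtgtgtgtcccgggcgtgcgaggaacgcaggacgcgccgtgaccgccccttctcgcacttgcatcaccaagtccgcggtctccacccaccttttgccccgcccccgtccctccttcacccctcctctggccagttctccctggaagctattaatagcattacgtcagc
RefSeq promoters were found for 7 of the 10 members, and not for Egr1, Ier2 and Myc. The search covered 250 bases before to 50 after each start, on both strands. The CRE TGACGTCA, the site bound by CREB and ATF dimers, occurred in Dusp1 at -143 and in 1.79% of 32851 promoters. Its shorter form, TGACGCA or TGCGTCA, occurred in Fosb at -60 and in 2.12% of promoters. The letters TATAAA of the TATA box occurred in Fos at -33 and in 13.6% of promoters. They also occurred in Junb at 1, at the annotated start rather than before it. The CArG box of serum response elements was in 0 of the 7 and in 1.63% of promoters, and the AP-1 site TGANTCA, with N any base, was in 0 of the 7 and in 7.81%. None of the searched motifs overlapped another in these promoters, and a missing match says only that these letters are not in this window.

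Depth ran from 9300549 read pairs at 20 µM, where 1 read pair was worth 0.108 RPM, to 28030180, with a median of 23367051. Autosomal expression split the libraries by principal component 1, which held 78.8% of the variance over 13103 genes, into DMSO replicates 1 and 2 with both 10 µM libraries (set 1) and DMSO replicate 3 with the 20 µM and 30 µM libraries (set 2). The sets were seen in the values and are not in the labels, and both high doses lie in set 2, so that within set 1 the highest dose is 10 µM. Of 8 mES cell markers, 7 were at 1 RPM or more in every library and Sox2 was listed at 0 in all 7. The 14 feeder fibroblast markers summed to between 898 and 1175 RPM in set 1 and between 470.0 and 642 RPM in set 2, nearly all of it Fn1, at 423 to 1148 RPM and higher in set 1 without overlap. Vim was at 19.5 to 36.2 RPM and the other 12 summed to between 5.64 and 10.4 RPM, with the highest sum at 20 µM, where Pdgfra reached 4.62 RPM. Lum was at 0 in 6 libraries, and Postn, Dcn and Acta2 were at 0.430 RPM or less in all 7. The part of feeder RNA in the members' values was not tested. TMM factors would move the RPM of single libraries by between -0.12 and 0.15 on the log2 scale relative to the totals used here. Leaving Lars2, Cmss1, Gphn, Cdk8 and Camk1d out of the totals would raise RPM by 0.135 at 20 µM. In the other libraries it would raise RPM by 0.0031 to 0.0168 on that scale. In these bulk samples fewer cells that transcribe a gene and less RNA per cell cannot be told apart, and p-values measure the spread between libraries.

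In the DMSO libraries the members spanned a wide range of levels per kb of gene, introns included. Ier2, a nuclear growth-response protein, stood highest at 5.59 ± 2.19 RPM per kb (SD, n = 3), and 93.2% of the 13599 genes tested were lower. Egr1 followed at 4.78, Dusp1 at 3.68, Junb at 2.87, Fos at 1.82, Myc at 1.48, Jun at 0.881 and Ier3 at 0.763 RPM per kb. Each of these overlapped the next in the order over the DMSO libraries. Atf3 reached 0.243 RPM per kb, over a span of 13038 bases, and overlapped Ier3 but not Fosb, which was lowest at 0.0171. The median of the 13599 genes was 1.08 RPM per kb, so that Jun, Ier3, Atf3 and Fosb lay below it.

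**Figure D1:**
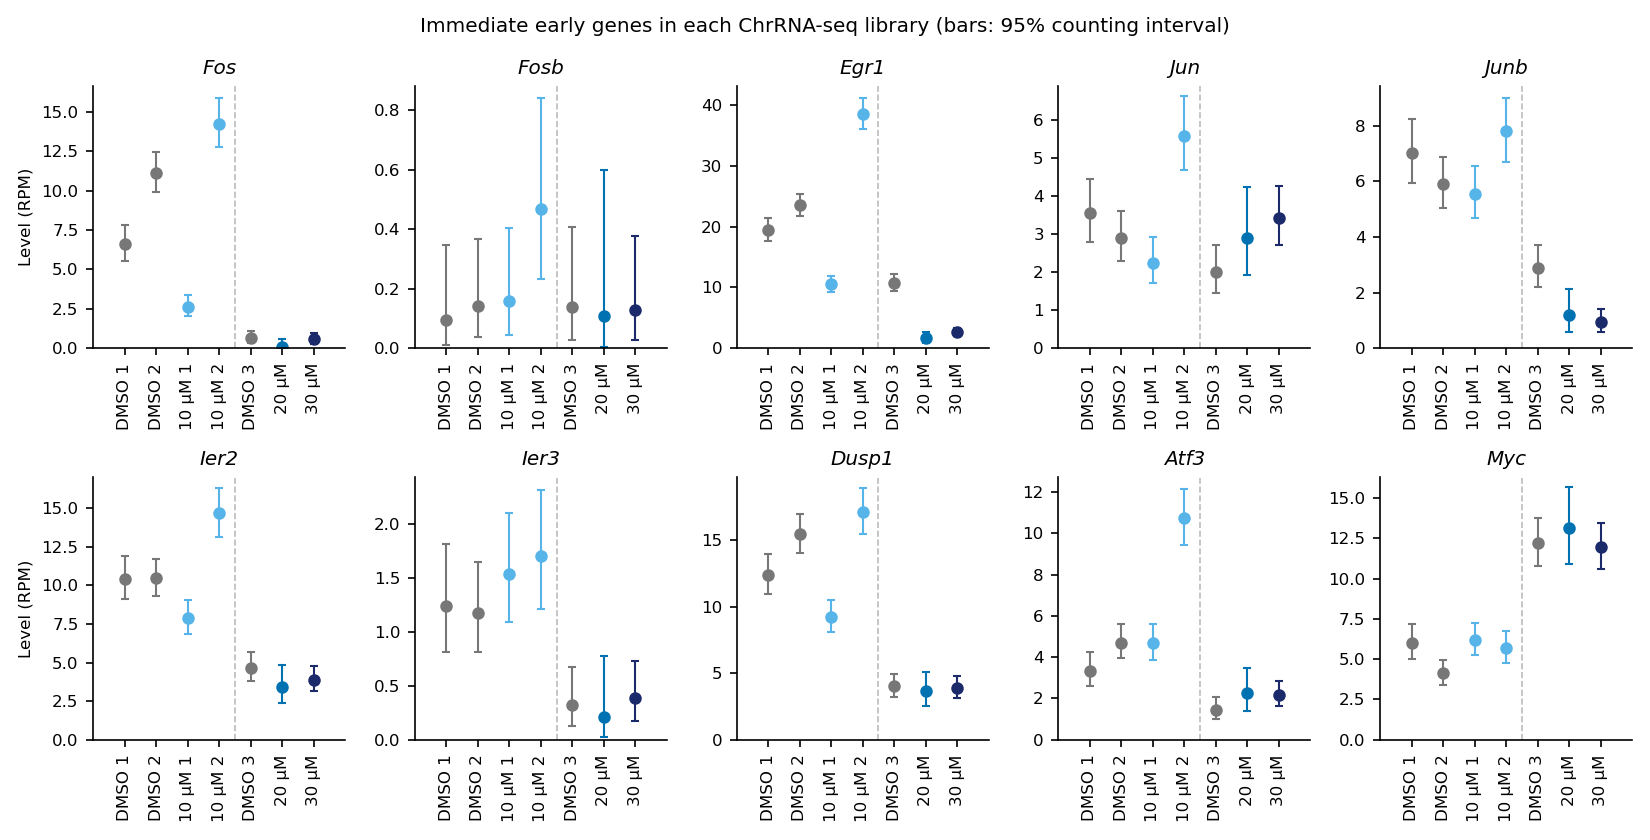
Level of each member (y axis, RPM from 0, one scale per gene) in the 7 ChrRNA-seq libraries (x axis, coloured by dose), with 95% exact Poisson intervals that cover counting error only. The dashed line parts set 1 from set 2, and 10 µM replicate 2 is the highest library of 9 members, while Myc is highest at 20 µM with 13.1 RPM.

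Fos, the founding AP-1 subunit that pairs with Jun proteins, lies at chr12:85473900-85477270 in mm10. It was at 6.60, 11.1 and 0.652 RPM in DMSO replicates 1, 2 and 3, at 2.64 and 14.2 RPM in 10 µM replicates 1 and 2, at 0.108 RPM at 20 µM and at 0.556 RPM at 30 µM. The 4 libraries of set 1 all lay above the 3 of set 2, and the value at 20 µM rested on 1 read pair. Within DMSO the highest value was 17.1-fold the lowest, a wider range than any other member had there. Fosb, a Fos paralog, lies at chr7:19302695-19310045 and was at 0.0956, 0.143 and 0.140 RPM in DMSO, at 0.158 and 0.469 RPM at 10 µM, at 0.108 RPM at 20 µM and at 0.128 RPM at 30 µM. Between 1 and 11 read pairs stood behind each of these values, and the intervals of the 7 libraries overlapped.

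Jun and Junb encode the Jun partners of AP-1, of which Junb can restrain Jun. Jun, a gene with a single exon at chr4:95049035-95052222, was at 3.54, 2.89 and 2.00 RPM in DMSO, at 2.25 and 5.58 RPM at 10 µM, at 2.90 RPM at 20 µM and at 3.42 RPM at 30 µM. Its sets overlapped, and its range over all libraries, 2.79-fold, was the narrowest of the 10. Junb, also with 1 exon, at chr8:84976908-84978748, was at 7.03, 5.92 and 2.89 RPM in DMSO, at 5.56 and 7.80 RPM at 10 µM, at 1.18 RPM at 20 µM and at 0.942 RPM at 30 µM. Its 3 set 2 libraries were the lowest, with both high doses below DMSO replicate 3.

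Egr1, a zinc finger transcription factor that ERK signalling induces through SRF, lies at chr18:34861206-34864956. It was at 19.5, 23.5 and 10.8 RPM in DMSO, at 10.5 and 38.5 RPM at 10 µM, at 1.61 RPM at 20 µM and at 2.61 RPM at 30 µM. DMSO replicate 3 was level with 10 µM replicate 1, so that the sets overlapped for Egr1, and the high doses stood apart below both. Ier2, with 1 exon at chr8:84661330-84662852, was at 10.4, 10.5 and 4.66 RPM in DMSO, at 7.88 and 14.7 RPM at 10 µM, at 3.44 RPM at 20 µM and at 3.89 RPM at 30 µM. Ier3, a regulator of survival and ERK signalling at chr17:35821712-35822911, was at 1.24, 1.18 and 0.326 RPM in DMSO, at 1.54 and 1.70 RPM at 10 µM, at 0.215 RPM at 20 µM and at 0.385 RPM at 30 µM. For both Ier genes every set 1 library lay above every set 2 library.

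Dusp1, a phosphatase that switches off p38 and JNK and so closes the loop on the signal, lies at chr17:26505590-26508472. It was at 12.4, 15.4 and 4.01 RPM in DMSO, at 9.22 and 17.1 RPM at 10 µM, at 3.66 RPM at 20 µM and at 3.89 RPM at 30 µM. The set 2 libraries lay within a narrow range of each other, well below set 1. Atf3, a stress-induced member of the ATF and CREB family, lies at chr1:191170296-191183333 and was at 3.35, 4.71 and 1.44 RPM in DMSO, at 4.69 and 10.7 RPM at 10 µM, at 2.26 RPM at 20 µM and at 2.18 RPM at 30 µM. Here too set 1 lay above set 2, with 10 µM replicate 2 far above the rest of its set and both high doses above DMSO replicate 3.

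Myc, the growth-promoting transcription factor that supports mES cell self-renewal, lies at chr15:61985340-61990361 and took the opposite order. It was at 6.02, 4.14 and 12.2 RPM in DMSO, at 6.19 and 5.71 RPM at 10 µM, at 13.1 RPM at 20 µM and at 12.0 RPM at 30 µM. All set 2 libraries were above all set 1 libraries.

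Of the 8 members with a mean of at least 1 RPM, 5 (Fos, Junb, Ier2, Dusp1 and Atf3) lay higher in set 1 than in set 2 without overlap, as did 39.8% of the 13599 genes. Myc alone lay lower in set 1 without overlap, as did 18.7% of genes. The sets were drawn by principal component 1 of autosomal genes that include these members, so that such counts only describe the split. Fos was below 1 RPM in every set 2 library, at 0.652, 0.108 and 0.556 RPM, and passed the filter through set 1. In 7 of the 8 the highest of the 7 libraries was 10 µM replicate 2, against 24.9% of genes. Summed over all 10, the members came to 70.1, 79.6 and 39.1 RPM in DMSO replicates 1, 2 and 3, 50.6 and 117 RPM at 10 µM, 28.6 RPM at 20 µM and 30.0 RPM at 30 µM. The 2 libraries at 10 µM were thus farther apart in this sum than the DMSO libraries were.

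At 10 µM, the dose with replicates, the question was whether METTL3 inhibition changed the members' RNA on chromatin, and their replicates moved in opposite directions. Against the DMSO library of the same number, Fos was 0.400-fold (95% counting interval 0.294 to 0.540) in replicate 1 and 1.28-fold (1.09 to 1.50) in replicate 2. Egr1 was 0.539-fold (0.460 to 0.630) and 1.64-fold (1.48 to 1.81). Jun was 0.635-fold (0.442 to 0.909) and 1.93-fold (1.45 to 2.58). These intervals, like all intervals here, are exact and cover counting error only, and for all 3 genes they lay below 1 in one pair and above 1 in the other. Junb, Ier2 and Dusp1 split the same way with smaller folds of 0.791, 0.756 and 0.745 in pair 1 and 1.32, 1.40 and 1.11 in pair 2. In all, 6 of the 8 members were lower in pair 1 and higher in pair 2, against 26.3% of genes.

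Atf3 was higher in both pairs, at 1.40-fold (1.03 to 1.91) and 2.28-fold (1.84 to 2.84). Myc was 1.03-fold (0.808 to 1.31) and 1.38-fold (1.07 to 1.78). Fosb was 1.65-fold (0.236 to 18.2) and 3.28-fold (0.973 to 14.1), and Ier3 1.24-fold (0.734 to 2.12) and 1.45-fold (0.890 to 2.37), so that counting error alone covers the folds of these 2 low genes. At a fold of 1.5, Fos, Egr1 and Jun were lower in pair 1, 3 of the 8 against 2.6% of genes, and none of the 8 was higher, against 2.33%. In pair 2, Egr1, Jun and Atf3 were higher, 3 of the 8 against 5.1%, and none was lower, against 1.01%. The median fold of the 8 was 0.751 in pair 1 and 1.39 in pair 2, beside 0.987 and 1.05 over all genes.

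**Figure D2:**
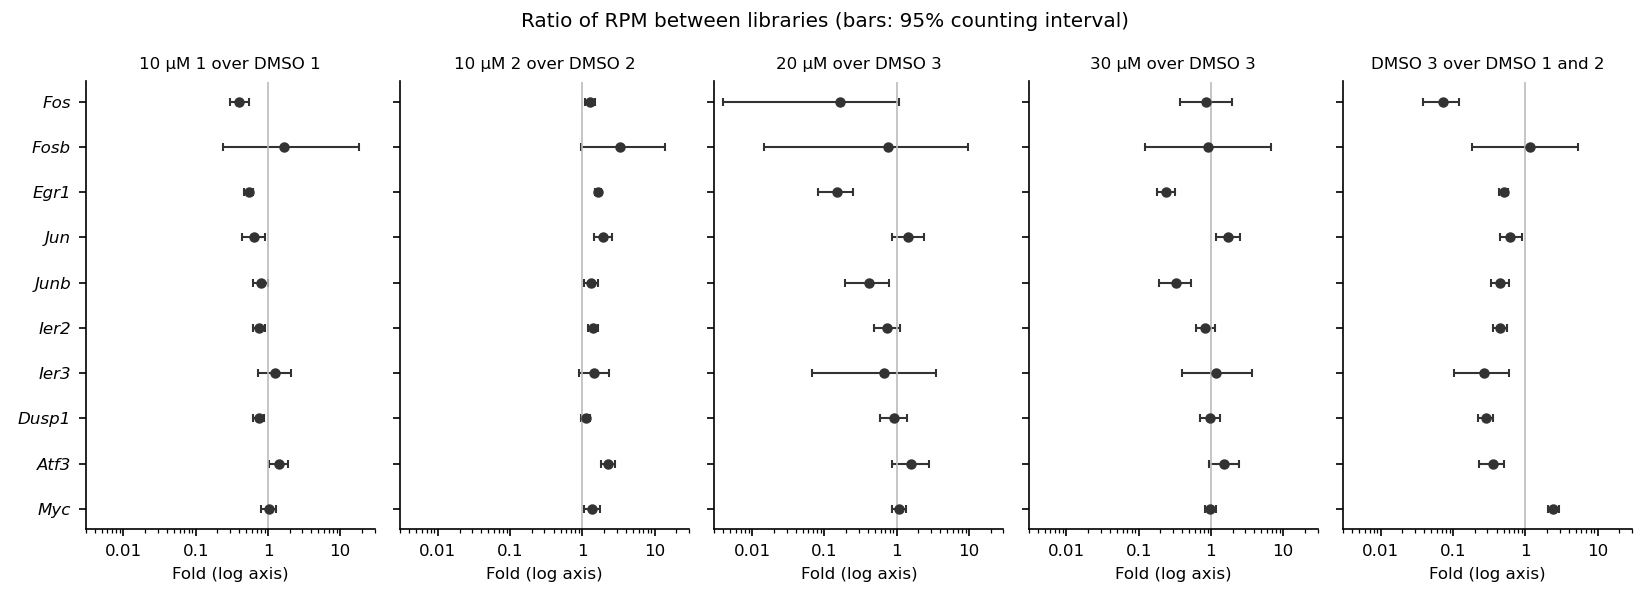
Ratio of RPM of each member (rows) between libraries (x axis, log scale) in 5 comparisons, with 95% exact counting intervals (for DMSO replicate 3, those of the ratio to the pooled reads). In pair 1 Fos, Egr1 and Jun lie below 1 and in pair 2 above 1, Egr1 and Junb lie below 1 at 20 µM and at 30 µM, and in DMSO replicate 3 over DMSO replicates 1 and 2 Myc alone lies above 1 with an interval clear of it.

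Tested over 3 DMSO and 2 libraries at 10 µM with limma, 0 of the 13599 genes passed a Benjamini-Hochberg adjusted p of 0.05 (0.0% called, 212 genes at an unadjusted p under 0.05), edgeR called 0 and DESeq2 called 1. No member was among the calls of any of the 3 tools. Log2 differences, on the scale of log2(RPM + 1), which understates the change of low genes, were 0.48 for Fos with an SE of 0.950, 0.24 for Egr1 with an SE of 0.563 and 1.06 for Atf3 with an SE of 0.466 (limma adjusted p = 0.874, 0.890 and 0.811). The other 5 tested members lay between -0.17 for Myc and 0.40 for Dusp1. The direction of several members rested on single libraries. Without 10 µM replicate 2 the differences of Fos (-0.55), Egr1 (-0.65), Jun (-0.21), Ier2 (-0.03) and Dusp1 (-0.01) were negative, and without DMSO replicate 3 those of Fos (-0.37), Egr1 (-0.07) and Dusp1 (-0.12) were negative and that of Myc (0.21) positive. Atf3 stayed positive, at 0.53 without 10 µM replicate 2 and 1.58 without replicate 1, and Junb was at 0.03 without DMSO replicate 3.

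A fit blocked by replicate number gives DMSO replicate 3 no weight and compares the 2 pairs with 1 residual degree of freedom per gene. In it Atf3 rose by 0.71 on the log2 scale with an SE of 0.171 (limma adjusted p = 0.00146). The same design in edgeR gave 0.88 (adjusted p = 0.000118). On the same 4 libraries without the block the difference was again 0.71, with an SE of 0.326 and a limma adjusted p of 0.891. With the block 4.13% of genes were called higher and 3.38% lower by limma, 3.11% and 3.04% by edgeR, so that 1 call among 8 members stands beside a background of several calls in 100 genes. No other member was called with the block by either tool, and the differences of Fos, Egr1 and Dusp1 were then negative at -0.37, -0.07 and -0.12.

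**Figure D3:**
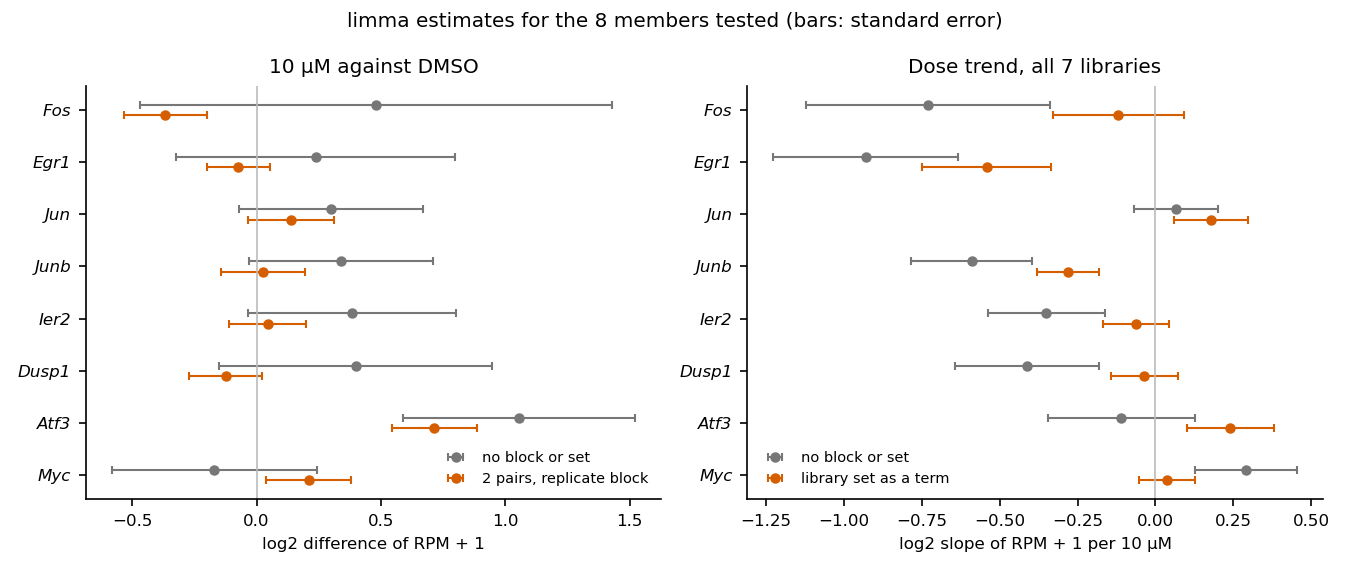
limma estimates for the 8 members tested (rows), with the standard error as bars: left, the log2 difference of RPM + 1 between 10 µM and DMSO without a block and within the 2 pairs, and right, the log2 slope per 10 µM over the 7 libraries without and with library set as a term. Atf3 stands at 1.06 without the block and at 0.71 with it, and Egr1 has the steepest fall with dose, -0.93 without and -0.54 with the set.

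For 20 µM and 30 µM the comparison was with DMSO replicate 3 of set 2, with 1 library on each side and no test. Both doses thus share a control library. Egr1 was 0.150-fold (0.0826 to 0.252) at 20 µM and 0.243-fold (0.180 to 0.323) at 30 µM, and Junb was 0.410-fold (0.194 to 0.785) and 0.326-fold (0.191 to 0.538). Both genes thus lay below DMSO replicate 3 at each high dose by more than counting error, and they were the 2 of the 8 members at least 1.5-fold lower at both doses, against 2.99% of genes. Fos was 0.165-fold at 20 µM, with an interval of 0.00390 to 1.08 that rests on 1 read pair, and 0.853-fold (0.369 to 1.96) at 30 µM.

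Jun was 1.45-fold (0.861 to 2.40) at 20 µM and 1.71-fold (1.17 to 2.54) at 30 µM, the reverse of its partner Junb. Atf3 was 1.56-fold (0.854 to 2.81) and 1.51-fold (0.949 to 2.44), so that counting error covers each of its folds there, and with TMM factors the fold at 30 µM was 1.46. Ier2 was 0.739-fold and 0.836-fold, Dusp1 0.913-fold and 0.972-fold, and Myc 1.08-fold and 0.982-fold, each with an interval that holds 1. Fosb was 0.770-fold and 0.919-fold and Ier3 0.660-fold and 1.18-fold, all from 9 read pairs or fewer. At a fold of 1.5, 3 of the 8 members were lower at 20 µM (Fos, Egr1 and Junb, against 11.1% of genes) and 1 was higher (Atf3, against 8.57%). Fos counts there on 1 read pair, and it passed the filter through set 1. With 1 RPM added to both libraries 2 of the 8 were lower at 20 µM, beside 986 of the 13599 genes. At 30 µM 2 were lower (Egr1 and Junb, against 4.62%) and 2 were higher (Jun and Atf3, against 9.12%). Median folds of the 8 were 0.826 and 0.913, beside 0.927 and 1.03 over all genes. Atf3 was the 1 member higher than its DMSO library in all 4 inhibitor libraries, as were 15.9% of genes, and no member was lower in all 4, as were 14.0%.

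Of the heat shock genes, Hsp90aa1, Hspd1 and Hspe1 were highest at 20 µM. Hsp90aa1, a chaperone, reached 2195 RPM there against 519 to 791 RPM in the other 6 libraries. Hspd1 reached 548 RPM against 149 to 269 RPM, and Hspe1 34.1 RPM against 17.5 to 25.8 RPM. Hspa8, Hsph1, Hspb1, Dnajb1 and Hspa1b lay within the range of the other libraries, and Hspa1a was at 0. The 9 genes of this list summed to 3277 RPM at 20 µM and to between 1168 and 1620 RPM elsewhere. This library is also the shallowest and held the lowest value of 5 members. Whether either feature bears on the members there was not tested.

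Along the dose over all 7 libraries limma called 0 genes (0.0% called, 1174 at an unadjusted p under 0.05), edgeR 0 and DESeq2 129, with no member among them. The slopes per 10 µM on the log2 scale were -0.93 for Egr1 with an SE of 0.296 and -0.59 for Junb with an SE of 0.194, and both had an adjusted p of 0.508 (limma). Fos had -0.73, Dusp1 -0.41, Ier2 -0.35, Atf3 -0.11, Jun 0.07 and Myc 0.29. With library set as a term, 0.199% of genes were called by limma and 0.537% by edgeR, and no member was. The slope of Egr1 was then -0.54 (limma adjusted p = 0.368) and that of Junb -0.28 (0.313), while Fos had -0.12, Dusp1 -0.04, Ier2 -0.06 and Myc 0.04. Atf3 turned to 0.24 (0.635). Comparing any dose with DMSO under the same term, a fit added after the values were seen, called 0.0147% of genes by limma and 0.0147% by edgeR and gave Atf3 a difference of 0.59 with an SE of 0.232 (limma adjusted p = 0.404) and Egr1 one of -0.82 (0.518).

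Without DMSO replicate 3 the dose trend called 6 of the 8 members. Egr1 (-1.08), Fos (-1.07), Junb (-0.74), Dusp1 (-0.63) and Ier2 (-0.50) fell with dose and Myc (0.44) rose, with limma adjusted p between 0.0283 and 0.0485. In that fit 11.3% of genes were called lower and 6.97% higher. No set 2 library is then left at a dose of 0, so that dose and set cannot be told apart.

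The DMSO libraries also differed among themselves, though all 3 had the same treatment. Against the mean of the other two, Fos was 0.0736-fold (0.0385 to 0.120), Dusp1 0.288-fold (0.224 to 0.355) and Atf3 0.358-fold (0.232 to 0.512). Junb and Ier2 were both 0.446-fold, Egr1 0.500-fold and Jun 0.623-fold. Myc was 2.40-fold (2.06 to 2.95), Ier3 0.269-fold (0.104 to 0.593) and Fosb 1.17-fold (0.184 to 5.34). The intervals here belong to the ratio to the pooled read pairs of both other libraries, which was 0.0709 for Fos and 2.47 for Myc. Thus 7 of the 8 members were at least 1.5-fold lower in DMSO replicate 3, against 29.5% of genes, and 1, Myc, was higher, against 11.2%. Of the 7, Fos was at 0.652 RPM there and passed the filter through set 1. With TMM factors 6 were lower, Jun at 0.706-fold falling short, and over all genes 3061 were lower and 2278 higher, against 4016 and 1528 without them. The median fold of the 8 was 0.446, beside 0.870 over all genes.

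Other immediate early genes gave a wider view of the same class. Of 34 listed, 27 had a mean of at least 1 RPM, and 0 were called at 10 µM or along the dose by limma over all libraries. With the block Nr4a2, an orphan nuclear receptor, rose by 0.51 (limma adjusted p = 0.0357; edgeR adjusted p = 0.0167), at 5.26, 6.96 and 5.78 RPM in DMSO and 7.88 and 10.3 RPM at 10 µM. Klf10, a TGF-beta-induced repressor, rose by 0.26 in limma (adjusted p = 0.0417) but not in edgeR (0.0985), and Cyr61, a matricellular protein, by 0.54 in edgeR (adjusted p = 0.0422) but not in limma (0.116). Between DMSO libraries 14 of the 27 were at least 1.5-fold lower in replicate 3 and 2 were higher, against 29.5% and 11.2% of all genes, with a median fold of 0.553 beside 0.870. Maff, a small Maf factor, was lowest there at 0.148-fold and Btg2, an anti-proliferative gene, was at 0.229-fold. Among the lower genes, Maff (0.978 RPM), Rhob (0.931), Jund (0.838), Ier5 (0.838) and Gadd45b (0.605) were below 1 RPM in DMSO replicate 3. These passed the filter through higher values in other libraries, so that their low values there are partly set by the filter. In the pairs the 27 had median folds of 0.967 and 1.24, beside 0.987 and 1.05 over all genes, and 13 of them were lower in pair 1 and higher in pair 2, against 26.3%. Fosl2, a further AP-1 subunit, and Ier5 were the 2 of the 27 that were at least 1.5-fold lower at 20 µM and at 30 µM, against 2.99%. Fosl2 was at 3.21, 0.860 and 2.10 RPM in DMSO replicate 3, at 20 µM and at 30 µM. Ier5 was at 0.838, 0.430 and 0.342 RPM in the same libraries and passed the filter through set 1. Counting intervals were not made for these 2 genes.

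**Figure D4:**
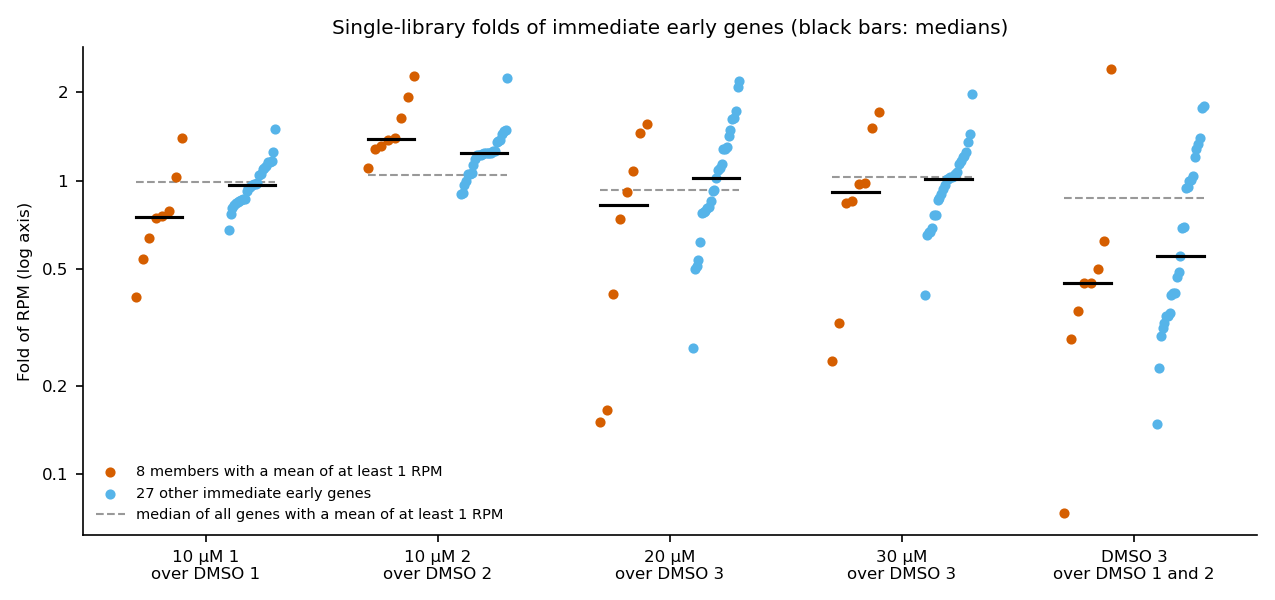
Fold of RPM (y axis, log scale) of the 8 members with a mean of at least 1 RPM and of 27 other immediate early genes in 5 comparisons of libraries (x axis). Each point is a gene, black bars are medians and dashed lines the median of all 13599 genes. Both groups have their lowest medians, 0.446 and 0.553, in DMSO replicate 3 over DMSO replicates 1 and 2.

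Genes upstream of the members and partners of Myc were read from the same fits. Of 21 kinases and transcription factors upstream, all with a mean of at least 1 RPM, none was called at 10 µM with or without the block. Among the abundant ones were Rps6ka5, a kinase of CREB and histone H3, at 665, 635 and 464 RPM in DMSO and 660, 577, 280 and 352 RPM at 10, 10, 20 and 30 µM, and Atf2 at 241 to 391 RPM. Srf was at 4.94 to 8.61 RPM. Of 6 AU-rich element binding proteins none was called, and Hnrnpd (365 to 420 RPM), Elavl1 (179 to 214 RPM) and Zfp36l1 (44.1 to 74.9 RPM) were the most abundant. In the Myc network of 10 genes, Max, the partner of Myc, fell by 0.22 and Mga rose by 0.24 with the block in limma (adjusted p = 0.0153 and 0.00482) but neither was called in edgeR (0.131 and 0.330). The paralogs Mycn and Mycl lay higher in set 1 than in set 2, the reverse of Myc. Mycn was at 18.4 to 23.1 against 7.36 to 16.4 RPM, and Mycl at 3.18 to 4.47 against 0.728 to 1.40 RPM. In all, 5 of the 10 network genes lay higher in set 1 without overlap, as did 39.8% of the 13599 genes. Of the heat shock genes, Hsp90aa1, Hspd1 and Hspa8 rose by 0.24, 0.25 and 0.22 with the block in limma (adjusted p = 0.00393, 0.00759 and 0.0146), and none was called in edgeR. Among the markers none of 7 tested for mES cells was called at 10 µM, with Esrrb, Zfp42 and Tdgf1 the most abundant, and Fn1 fell by 0.26 with the block in limma (adjusted p = 0.00157) but was not called in edgeR (0.227).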

How the data were processed

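ChrRNA-seq libraries (3 DMSO, 2 at 10 µM, 1 at 20 µM, 1 at 30 µM) were compared. Per the labels and the study's methods, the authors used Bowtie2 to discard rRNA reads and STAR to align to mm10, featureCounts to count read pairs over whole genes by strand, and edgeR to give the RPM values deposited. Whole read pairs were recovered for 100% of values (tolerance 0.05). The 13599 genes whose mean reached 1 RPM were fitted with limma 3.58.1 (eBayes with trend) on log2(RPM + 1), with Benjamini-Hochberg adjustment over all of them. edgeR 4.0.16 (quasi-likelihood) and DESeq2 1.42.0 on the read pairs, in R 4.3.3, were alternatives, with TMM, other pseudocounts and filters, the replicate block, library set and each library left out. Pairs rest on the labels' replicate numbers and the study's statement that wells of a replicate came from the same cells, and paired libraries deviated together (r = 0.621 across genes). Named genes are the members, list genes called at 10 µM and otherwise the 3 most abundant of a list, of which 1 is not reported here. Others were named after their values were seen (Srf, Mycn, Mycl, Maff, Btg2, Fosl2, Ier5). Members and lists were chosen with earlier results of these data known. Promoters are from RefSeq (GRCm38.p6). The allelic ratios were not used here.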

Additional observations from a re-analysis of the deposited data

How the results depend on the processing

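Of 250 values for members refitted under the alternatives, 220 kept their direction and their side of the threshold, 22 reversed and 8 became called. With the replicate block the 10 µM differences reversed to -0.37 for Fos, -0.073 for Egr1, -0.12 for Dusp1 and 0.21 for Myc in limma, and to -0.28, -0.014, -0.14 and 0.22 in edgeR, and the block called 1020 genes in limma and 837 in edgeR against 0 without it. The 4 libraries of the 2 pairs and the 1 residual degree of freedom per gene limit what the block shows. DESeq2 called 1 gene at 10 µM and 129 along the dose. Library set as a term gave 27 genes along the dose, 73 in edgeR, and 2 and 2 for any dose, and Atf3 then reversed to 0.24, 0.37, 0.59 and 0.82. With 1 RPM added to both libraries, 2 members were past 1.5-fold in pair 1, 2 at 20 µM and 2 at 30 µM, all of them lower. Of the 13599 genes, 119, 986 and 353 were then lower and 112, 766 and 720 higher. Without it 4, 5 and 4 of the 10 members were past 1.5-fold in either direction. Beside them 353, 1504 and 628 genes were lower and 317, 1166 and 1240 higher. Leaving out each library in turn gave 0 to 1 genes at 10 µM and 0 to 2485 along the dose, the latter without DMSO replicate 3. In those fits the 10 µM differences ran from -0.55 to 1.51 for Fos, from -0.65 to 1.13 for Egr1, from -0.21 to 0.81 for Jun, from 0.027 to 0.55 for Junb, from -0.026 to 0.79 for Ier2, from -0.12 to 0.81 for Dusp1, from 0.53 to 1.58 for Atf3 and from -0.47 to 0.21 for Myc, and the dose slope of Atf3 from -0.28 to 0.10. Where a lone 10 µM library was left, it was assumed to vary like the DMSO libraries. With a mean of at least 5 RPM required, Jun, Junb and Atf3 were not tested. The causes were not tested. Depth limits Fosb, Ier3 and, at 20 µM, Fos.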
